A study of Mus musculus with 6 samples.

Results

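Corticosteroid signaling in the renal cortex was followed through 9 genes: the receptors *Nr3c1* and *Nr3c2*, the enzymes *Hsd11b1* and *Hsd11b2*, and the induced genes *Fkbp5*, *Zbtb16*, *Tsc22d3*, *Sgk1* and *Klf9*. They were picked by symbol from the 26903 genes listed over the 6 libraries together, and all 9 were present in each library. Each library by itself listed between 22241 and 22908 genes. The choice was made on measured values, since higher *Fkbp5* in endothelial-like and macrophage-like cells, and higher *Zbtb16* in podocyte-like cells, were already known from these libraries. For these 2 genes the levels and fold changes are therefore a description with no test.

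Corticosterone, the main glucocorticoid of mice, binds the glucocorticoid receptor encoded by *Nr3c1* and also the mineralocorticoid receptor encoded by *Nr3c2*, whose other ligand is aldosterone. In the aldosterone-sensitive distal nephron, the enzyme encoded by *Hsd11b2* inactivates corticosterone, so that aldosterone can occupy the mineralocorticoid receptor, while the enzyme encoded by *Hsd11b1* works in the opposite direction and regenerates active hormone. The bound receptors enter the nucleus and switch on genes such as *Fkbp5*, which encodes an inhibitory co-chaperone of the receptor itself.

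The libraries were single-cell RNA-seq of renal cortex from mice aged 9 months, made with BD Rhapsody, a system that captures cells in microwells beside barcoded beads. There were 3 wild type (WT) mice and 3 *Prdm16* global knockout (KO) mice. The KO allele was made with CRISPR-Cas9 and lacks exon 2, which shifts the reading frame, and all mice were C57BL/6J and labelled male. The deletion is global, so it is present in every tissue and not in the kidney alone.

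After filtering, 28488 cells were kept, between 3538 and 6276 per library, with median depths of 2372 to 3568 UMIs (unique molecular identifiers, each a counted transcript) per cell. Markers sorted them into 14 classes, each called after the cell type it is like, and the names below stand for such "-like" classes. Of the 124 class markers, 112 had their highest mean level in their own class, but only 4 of 9 did so in the thin limb class, which is named with less certainty. *Prdm16* was still counted at 21.0, 24.9 and 23.4 CPM (a gene's UMIs after every library or class was brought to one common total) in KO libraries against 32.4, 26.7 and 27.1 CPM in WT libraries, and reads outside the removed exon do not check the deletion. WT 2 and KO 1 had 297 and 306 CPM of *Xist* and at most 0.0613 CPM of Y-linked genes, while the other 4 libraries had at most 0.216 CPM of *Xist*. These 2 libraries therefore go against the male label. For some results of the members, but not all, values without KO 1 or without both libraries are also given. For the gene lists, the calls lost without them are named at the end. No pair of libraries shared more than 2 cell barcodes.

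Genotypes were compared in the 13 classes to which each library gave 10 or more cells, with the UMIs of each class summed per library and tested with edgeR's quasi-likelihood test. Neutrophils were left out of the test because WT 1 had 0 of them. The 9 members entered 84 of the possible gene-by-class tests and fell below the low-count filter in 33. Over all genes and classes, 0.727% of tests were called higher and 0.694% called lower in KO at an adjusted p below 0.05. The 3 KO libraries all lay above the 3 WT libraries in 7.42% of all tests and all below in 8.87%. Among the 65 tests of the 7 members other than *Fkbp5* and *Zbtb16*, 1 was called higher and 1 lower, and the libraries were fully separated with KO above in 7 and with KO below in 10. Of the 10 with KO below, 5 were of *Hsd11b2*.

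The glucocorticoid receptor gene *Nr3c1* (GRCm38 chr18:39410545-39519421, minus strand) was lowest where the mineralocorticoid receptor gene was highest. Its level was 286 ± 94.8 CPM (SD over the libraries, n = 6) in T and NK cells, 209 ± 46.2 in neutrophils (n = 5), 138 ± 23.2 in endothelial cells, 138 ± 30 in macrophages and 133 ± 42.1 in stromal cells. Podocytes had 72.0 ± 13.2 CPM, the thick ascending limb 47.8 ± 3.70, intercalated cells 25.5 ± 4.84, the distal convoluted tubule 18.8 ± 2.53, principal cells 9.26 ± 1.47 and the connecting tubule 5.16 ± 2.84. The endothelial, macrophage and stromal levels did not differ beyond their spread, and neither did B cells (84.1 CPM), thin limb cells (74.3 CPM) and podocytes. Of the 13 neighbouring pairs of classes in this order, 6 were further apart than the larger SD.

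In podocytes, *Nr3c1* was 66.6, 60.1 and 58.7 CPM in WT and, in KO, 89.9, 86.2 and 70.4 CPM, so every KO library lay above every WT library. The log2 fold change was 0.40 ± 0.11 (SE), which did not pass the test in edgeR (adjusted p = 0.0936). In endothelial cells the WT libraries had 163, 151 and 148 CPM and the KO libraries 100, 146 and 121 CPM, with every KO library below (log2 fold change -0.32 ± 0.16 and, from edgeR, adjusted p = 0.621). With the 4 libraries without *Xist* alone, the log2 fold change was 0.32 in podocytes and -0.16 in endothelial cells. A test of whether the genotype difference itself varied over the 13 classes, run in edgeR with each mouse as a block, called 4.47% of 13303 genes and called *Nr3c1* among them (adjusted p = 0.0260). That call was lost without WT 1 (adjusted p = 0.0967), WT 2 (0.382), KO 1 (0.685) or KO 3 (0.0831) and was kept without WT 3 (0.0370) or KO 2 (0.0160). None of the other 6 tested members was called in it, with adjusted p from 0.109 for *Sgk1* to 0.994 for *Hsd11b1* in edgeR.

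The mineralocorticoid receptor gene *Nr3c2* (chr8:76899442-77245012, plus strand) followed the order of the distal nephron. Principal cells, which reabsorb sodium under aldosterone, had 53.1 ± 5.15 CPM, the connecting tubule 37.6 ± 5.73, intercalated cells 22.7 ± 4.97 and the distal convoluted tubule 22.2 ± 3.81. The first 2 of these were apart from their neighbours beyond the spread, and intercalated and distal convoluted cells were not apart from each other. Endothelial cells had 15.9 ± 5.07 CPM and the thick ascending limb 12.7 ± 2.61, while neutrophils had 1 UMI in all. The 3 KO libraries were below WT in the distal convoluted tubule (21.1, 28.6 and 25.1 against 19.1, 20 and 19.6 CPM) and in the thick ascending limb (13.5, 14.4 and 15.6 against 9.84, 9.10 and 13.5 CPM). They were above WT in endothelial cells (14.1, 15.5 and 7.39 against 16.8, 19.8 and 22.0 CPM). None of these differences passed the test, with log2 fold changes of -0.37 ± 0.17, -0.40 ± 0.18 and 0.64 ± 0.30 and edgeR adjusted p of 0.512, 0.300 and 0.566.

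**Figure D1:**
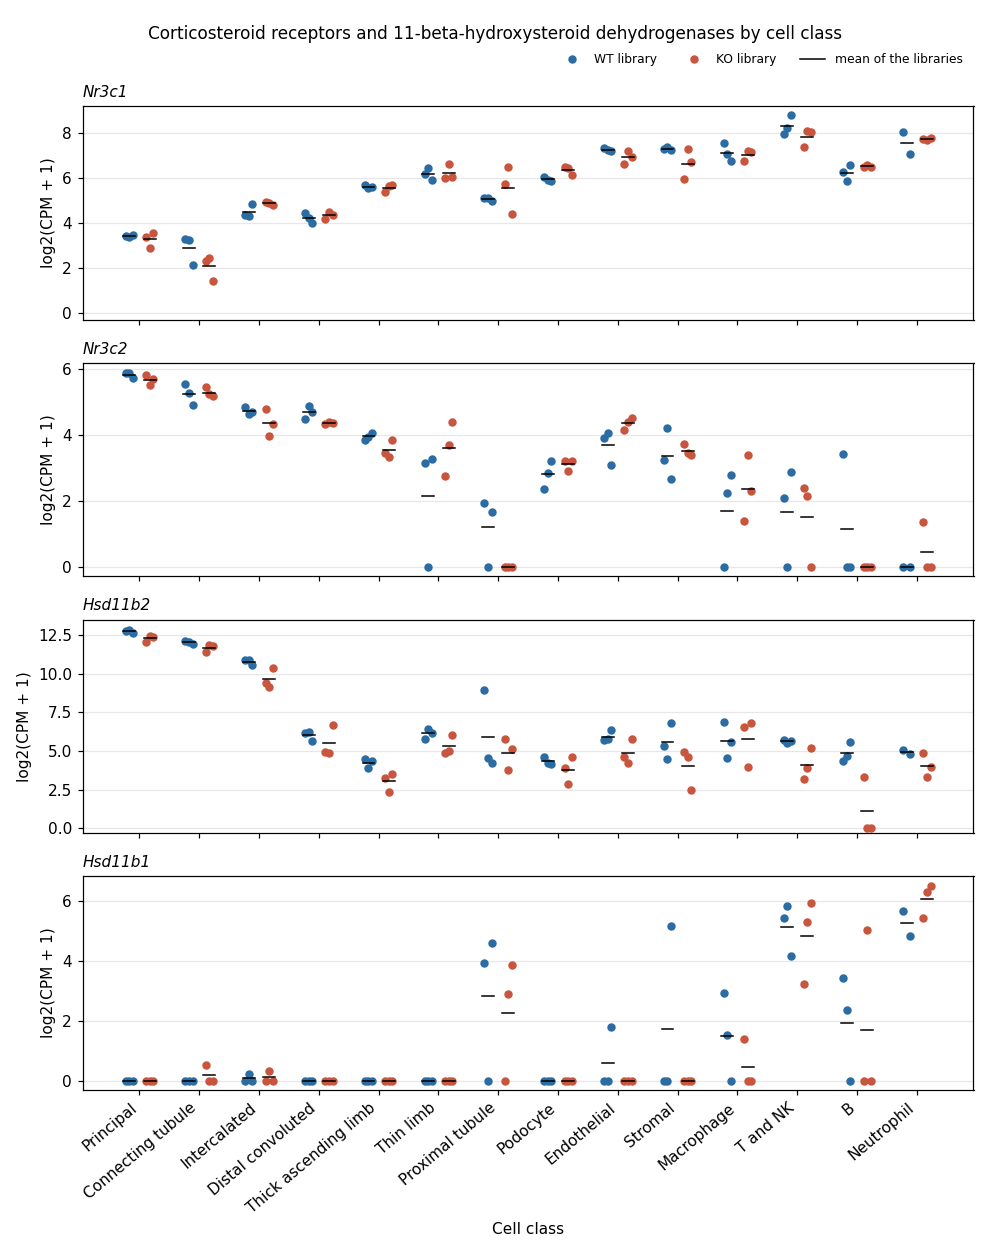
Levels of the receptor and enzyme genes, as log2(CPM + 1) on the vertical axis, for each cell class on the horizontal axis. Each point is 1 library (blue WT, red KO) and the black line is the mean of the plotted values. *Nr3c2* and *Hsd11b2* are highest at the left in the principal and connecting tubule classes, where *Nr3c1* is lowest, and *Hsd11b1* leaves 0 mainly in proximal tubule, T and NK cells and neutrophils.

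*Hsd11b2* (chr8:105518755-105523988, plus strand) was concentrated in the same distal segments. Principal cells had 7026, 7475 and 6506 CPM in WT and, in KO, 4231, 5667 and 5343 CPM. The connecting tubule had 4387, 4251 and 3972 CPM in WT and, in KO, 2787, 3657 and 3629 CPM. The highest KO library lay below the lowest WT library in both classes, but the log2 fold changes of -0.42 ± 0.16 and -0.27 ± 0.16 did not pass the test (edgeR adjusted p = 0.237 and 0.620). Without the *Xist* libraries these fold changes were -0.25 and -0.12. In the connecting tubule the direction turned when no mitochondrial limit was set and the cells were clustered again (log2 fold change 0.81, edgeR adjusted p = 0.00282). After each cell was thinned to 1000 UMIs, 98.5% of WT and 97.3% of KO principal cells and 91.5% and 89.7% of connecting tubule cells still held a UMI of *Hsd11b2*, so the transcript was found in most cells of both genotypes. Unthinned, the shares in principal cells were 98.0% and 97.9%.

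Intercalated cells, which handle acid and base, had 1901, 1937 and 1494 CPM of *Hsd11b2* in WT, against 669, 576 and 1340 in KO (log2 fold change -1.02 ± 0.28 and, from edgeR, adjusted p = 0.154). These cells came from 3 clusters that differed widely. One cluster, in which principal cell markers ranked next to those of intercalated cells, had 3368, 3232 and 2818 CPM in WT and, in KO, 1786, 2553 and 2672 CPM and held 1138 WT and 579 KO cells. The other clusters of the class had between 19.1 and 362 CPM. By library, this first cluster held 383 of 604, 460 of 643 and 295 of 476 cells of the class in WT. In KO it held 238 of 602, 66 of 305 and 275 of 455. Its share was thus lower in KO 1 and KO 2, while KO 3 was close to WT 3. The median depth of the class was 2766 UMIs per cell in WT and 10667 in KO. The part of the cluster share or of depth in the class value was not tested.

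Outside these segments *Hsd11b2* was counted in every class, with class means of 13 CPM in the thick ascending limb to 67.3 CPM in macrophages apart from proximal tubule cells. Those had 502 CPM in WT 1 from 179 UMIs, against 12.8 to 53.2 CPM in the other 5 libraries, and the class did not enter the test. Their principal cell marker sum ranged from 45.2 to 651 CPM in WT. *Hsd11b2* was also present in free RNA. Barcodes with at most 100 UMIs, which hold no cell, carried 708 to 842 CPM of it in WT and 328 to 570 CPM in KO. In the thick ascending limb, the segment upstream of the distal convoluted tubule, the WT libraries had 21.0, 14.0 and 20 CPM and the KO libraries 8.38, 4.12 and 10.5 CPM. This was the 1 call in the lower direction among the 7 members (log2 fold change -1.22 ± 0.27 and, from edgeR, adjusted p = 0.0206), in a class where 2.27% of all genes were called lower. After thinning, 3.16% of WT and 1.3% of KO cells of this class held a UMI (11.4% and 6.12% unthinned, median depths 5858 and 10106 UMIs). In T and NK cells, which should lack the gene, the thinned shares were 4.59% and 1.58% (7.38% and 4.13% unthinned, median depths 1995 and 2231 UMIs), so the thinned shares in the thick ascending limb did not exceed those of a class that should lack the gene, and they are read as background rather than as expression. The summed level of the 8 principal cell markers in that class was 30.7 to 39.5 CPM in WT and 16.9 to 24.5 CPM in KO, with 7 of the 8 lower and none at 0, and free RNA's part in the difference was not tested. The call was lost without WT 1 (adjusted p = 0.0703), WT 3 (0.0680) or KO 1 (0.0643) and with a mitochondrial limit of 30% (log2 fold change -0.22, edgeR adjusted p = 0.913) or none (-0.68, 0.136).

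*Hsd11b1* (chr1:193221634-193264075, minus strand) had an almost opposite distribution. It reached 49.5 and 27.3 CPM in the neutrophils of WT 2 and WT 3 and 42.2, 77.0 and 89.1 CPM in those of KO, though the WT values rest on 4 UMIs. T and NK cells had 41.7, 56.0 and 17.0 CPM in WT and, in KO, 8.36, 37.8 and 60 CPM, which overlapped (log2 fold change -0.28 ± 0.58 and, from edgeR, adjusted p = 0.992), and this was the only class in which the gene entered the test. In proximal tubule cells, the libraries ranged from 0 to 23.1 CPM, and in stromal cells all 13 UMIs came from WT 3. No UMI was found in 3577 principal, 3409 thick ascending limb, 5604 podocyte, 2157 distal convoluted and 264 thin limb cells, counts that allow shares of cells with a UMI of up to 0.0839%, 0.0880%, 0.0535%, 0.139% and 1.14% (3 counts, counting error only).

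Of the genes that glucocorticoids induce, promoters are shown first, because a glucocorticoid response element is the sequence through which the receptor is best known to act. The element is a palindrome of the arms AGAACA and TGTTCT with 3 bases of any kind between them. RefSeq windows on GRCm38.p6 that run from 250 bases before to 50 bases after a gene start were searched, and since each arm is the reverse complement of the other, both strands were covered. The whole palindrome was in 3 of 32851 windows (0.00913%) and either arm was in 19.0% of them. Of the 13 windows of 6 members, 1 held the palindrome and 4 held an arm. In the sequences below the capitals mark the palindrome, with its 3 middle bases, or single arms.
Sgk1, chr10:21993640-21993939, plus strand: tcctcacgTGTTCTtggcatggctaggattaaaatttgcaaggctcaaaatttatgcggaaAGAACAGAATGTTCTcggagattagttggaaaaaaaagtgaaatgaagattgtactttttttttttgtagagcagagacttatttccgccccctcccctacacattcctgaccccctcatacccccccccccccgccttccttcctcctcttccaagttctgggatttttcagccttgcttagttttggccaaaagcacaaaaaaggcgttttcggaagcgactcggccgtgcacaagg
Tsc22d3, chrX:140600473-140600772, minus strand: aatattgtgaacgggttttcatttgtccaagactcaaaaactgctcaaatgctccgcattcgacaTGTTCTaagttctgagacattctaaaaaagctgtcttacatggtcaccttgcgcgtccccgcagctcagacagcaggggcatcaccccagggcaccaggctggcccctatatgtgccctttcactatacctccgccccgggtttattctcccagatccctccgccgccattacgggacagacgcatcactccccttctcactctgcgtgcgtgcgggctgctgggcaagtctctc
Fkbp5, chr17:28486100-28486399, minus strand: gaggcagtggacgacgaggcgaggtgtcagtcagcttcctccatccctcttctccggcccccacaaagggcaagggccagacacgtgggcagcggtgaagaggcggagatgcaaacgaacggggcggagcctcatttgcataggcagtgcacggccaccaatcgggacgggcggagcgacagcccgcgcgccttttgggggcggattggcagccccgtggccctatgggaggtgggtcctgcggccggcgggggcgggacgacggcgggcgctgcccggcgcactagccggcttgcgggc

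The *Sgk1* window is 1 of 6 for that gene and holds the palindrome at bases 62 to 76 of the window. The *Tsc22d3* window is 1 of 3 and holds an arm at bases 66 to 71. The single *Fkbp5* window, of the member with the largest differences between genotypes apart from *Zbtb16*, has neither the palindrome nor an arm, and the windows of *Klf9*, *Nr3c2* and *Hsd11b1* have none either. A match describes letters and is not a shown binding site.

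*Fkbp5* (chr17:28399094-28517527, minus strand) was higher in KO in all 12 classes in which it entered the fit, and in 11 of them every KO library lay above every WT library. In podocytes, the WT libraries had 6.13, 7.68 and 3.95 CPM and the KO libraries 125, 61.2 and 61.8 CPM, a log2 fold change of 3.75 ± 0.31. In macrophages, *Fkbp5* was 17.3, 20.5 and 17.8 CPM in WT against 208, 78.6 and 86.3 CPM in the KO libraries (2.87 ± 0.40). In endothelial cells it was 32.0, 12.2 and 15.6 CPM in WT against 195, 84.0 and 137 CPM in the KO libraries (2.84 ± 0.35). Thin limb cells had 15.8, 17.3 and 8.53 CPM against 106, 99.7 and 81.4 CPM (2.85 ± 0.41), from 7 UMIs in WT. In that class *Slc12a1*, the defining transporter gene of the thick ascending limb, had 94.8, 844 and 1040 CPM in WT libraries against 1268, 2420 and 2334 in KO libraries. The median depth there was 1824 UMIs per cell in WT and 5905 in KO, and the part of either in the *Fkbp5* value was not tested.

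Fold changes in the thick ascending limb and the segments after it were smaller than in podocytes, macrophages, endothelial and thin limb cells. In the thick ascending limb, *Fkbp5* was 34.2, 45.4 and 35.6 CPM in WT against 153, 94.6 and 119 CPM in the KO libraries (log2 fold change 1.67 ± 0.16). In the distal convoluted tubule, whose WT level was the highest of any class, the values were 45.1, 53.2 and 49.6 against 79.2, 73.2 and 71.3 CPM (0.59 ± 0.12). Principal cells had 20.5, 16.4 and 17.7 against 34.1, 41.4 and 22.7 CPM (0.86 ± 0.20), and intercalated cells 24.7, 19.4 and 18 against 44.7, 35.9 and 24.7 CPM (0.77 ± 0.19). The connecting tubule was the only fitted class in which the genotypes overlapped, with 10.6, 13.3 and 17.2 against 17.4, 15.9 and 13.7 CPM (0.28 ± 0.28). The other fitted classes, proximal tubule, stromal and T and NK cells, had log2 fold changes of 1.94 ± 0.51, 1.59 ± 0.40 and 1.54 ± 0.39. The 4 smallest *Fkbp5* fold changes were thus those of the connecting tubule, distal convoluted tubule, intercalated and principal cells, which were also the classes with the least *Nr3c1*, and no test of that coincidence was made.

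The larger level went with more cells holding the transcript. At 1000 UMIs per cell, 0.550% of WT and 7.63% of KO podocytes, 1.75% and 12.7% of endothelial cells, 1.51% and 11.1% of macrophages and 4.35% and 12.1% of thick ascending limb cells held a UMI of *Fkbp5*. Unthinned, the shares were 3.10% and 24.3% in podocytes and 3.19% and 18.6% in endothelial cells. These are means over 3 libraries, and 90 WT and 105 KO podocytes and 523 WT and 998 KO endothelial cells were too shallow to be thinned. Free RNA held 19.7 to 26.9 CPM of *Fkbp5* in WT and 31.0 to 60.2 CPM in KO, so the WT podocyte level was below that of free RNA and the KO podocyte level was above it in each library. In the connecting tubule *Fkbp5* was below free RNA in every library. In principal and intercalated cells it was below in all libraries but KO 2. The part of free RNA in the values of these classes was not tested. The 3 endothelial clusters each showed the difference, with KO libraries at 159, 65.9 and 75 CPM, 161, 90.7 and 76.1 CPM, and 317, 96.6 and 257 CPM, and no WT library above 38.1 CPM. So did both podocyte clusters, with KO libraries from 59.4 to 146 CPM and WT libraries from 3.64 to 7.73 CPM.

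The 2 unnamed clusters differed in the same direction. The one led by *Nos1*, *Pappa2* and *Ptgs2*, with 229 WT and 291 KO cells, had 47.9, 51.9 and 49.5 CPM of *Fkbp5* in WT and 132, 133 and 116 CPM in KO. In a shallow cluster, in which podocyte markers ranked first, all 3 WT libraries were listed at 0 and KO libraries had 71.0, 32.2 and 28.4 CPM.

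KO 1 was the highest KO library for *Fkbp5* in 10 of 12 classes, and KO 1 is one of the 2 libraries with *Xist*. Without KO 1, log2 fold changes stayed above 0 in all 12 classes and ranged from 0.24 to 3.33. With the 4 libraries without *Xist* alone they ranged from 0.20 to 3.57. Neutrophil markers also moved with the genotype in some classes. Their summed level in podocytes was 0.657 to 1.67 CPM in WT and 5.32 to 24.5 CPM in KO, with 7 of 7 higher, and neutrophils themselves had 14.8 to 62.5 CPM of *Fkbp5* in KO, which in each library was below the level in podocytes. In endothelial cells the macrophage marker sum was 58.6 to 106 CPM in WT and 169 to 592 CPM in KO, against 26099 to 31570 CPM in KO macrophages. Their part in the *Fkbp5* values was not tested.

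**Figure D2:**
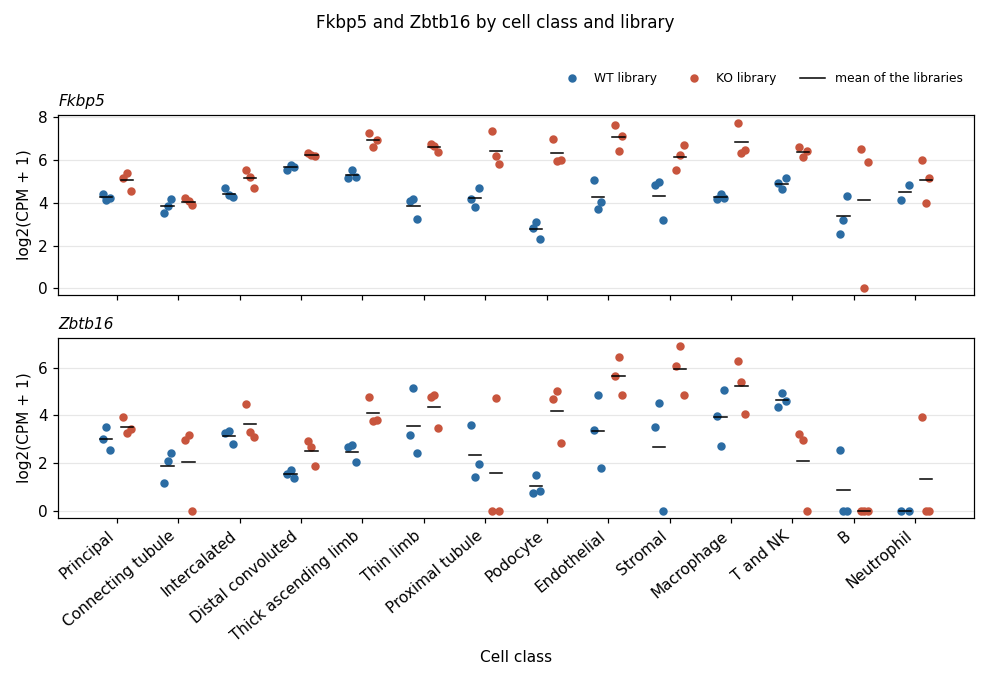
*Fkbp5* (top) and *Zbtb16* (bottom) as log2(CPM + 1) by cell class, with 1 point per library (blue WT, red KO) and a black line at the mean of the plotted values. KO points of *Fkbp5* sit above all WT points in 11 of the 12 fitted classes, while *Zbtb16* is higher in KO podocytes, stromal and thick ascending limb cells and lower in KO T and NK cells.

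*Zbtb16* (chr9:48654297-48836222, minus strand) encodes PLZF, a transcription factor of the BTB zinc finger family that is also known for its role in innate-like T cells. It entered the fit in 7 classes and had a positive log2 fold change in all of them. In podocytes, it was 0.657, 1.84 and 0.789 CPM in WT and, in KO, 24.9, 31.5 and 6.14 CPM, from 17 and 258 UMIs (log2 fold change 4.15 ± 0.57). In the thick ascending limb, WT libraries had 5.30, 5.68 and 3.07 CPM and KO libraries 26.6, 12.5 and 13 CPM (1.88 ± 0.31). In stromal cells, values were 10.5, 21.9 and 0 CPM in WT against 66.8, 119 and 28.3 CPM in the KO libraries (2.58 ± 0.56). In these 3 classes the genotypes did not overlap, and without WT 2 the stromal log2 fold change was 3.65. Free RNA held 7.01, 9.05 and 5.59 CPM of *Zbtb16* in WT and 26.2, 10.8 and 16.4 CPM in KO, close to the thick ascending limb in level and direction, and its part there was not tested. They did overlap in endothelial cells, where WT 2 with 27.7 CPM lay just above KO 3 with 27.5 CPM (2.06 ± 0.52), and in macrophages, intercalated and principal cells (1.69 ± 0.55, 0.72 ± 0.33 and 0.59 ± 0.28). Leaving out 1 library moved the endothelial value to between 1.57 (without WT 3) and 3.28 (without WT 2), and in intercalated cells the log2 fold change was 0.08 without KO 1. In macrophages it was 1.12 without KO 1. With the 4 libraries without *Xist* alone, the 6 classes that could be fitted ranged from 0.19 in intercalated cells and 0.72 in macrophages to 4.73 in podocytes.

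T and NK cells showed the opposite order for *Zbtb16*, with 19.3, 29.3 and 23.4 CPM in WT and, in KO, 8.36, 6.87 and 0 CPM. These values rest on 28 and 4 UMIs and did not pass the low-count filter, and the class held 544 WT and 235 KO cells. Its makeup of T and NK subtypes was not examined, and its part in the difference was not tested.

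*Tsc22d3* (chrX:140539528-140600659, minus strand) encodes GILZ, the glucocorticoid-induced leucine zipper. It was highest in B cells (294 ± 293 CPM), podocytes (184 ± 92.6), T and NK cells (172 ± 23.3), neutrophils (149 ± 76.2) and endothelial cells (116 ± 19.3), and lowest in the connecting tubule (5.46 ± 1.38). The first 7 classes in its order were not apart from their neighbours beyond the spread. It was the 1 member of the 7 called higher, in the thick ascending limb, where 2.16% of all genes were called higher. There the WT libraries had 9.14, 6.98 and 6.13 CPM and the KO libraries 17.0, 12.4 and 10.3 CPM (log2 fold change 0.83 ± 0.21 and, from edgeR, adjusted p = 0.0461). The p was close to the threshold. The call was lost without WT 2 (adjusted p = 0.13), WT 3 (0.147), KO 1 (0.169), KO 2 (0.0713) or KO 3 (0.0506), with the 4 libraries without *Xist* (0.318), with equal numbers of cells per library (0.0896), and with a mitochondrial limit of 30% (0.164) or none (0.0900). Free RNA held 15.6, 21.2 and 12.8 CPM of *Tsc22d3* in WT and 39.3, 19.5 and 22.1 CPM in KO, above the thick ascending limb level in each library, and its part in the difference was not tested. In podocytes, 163, 147 and 98.9 CPM in WT and, in KO, 366, 158 and 172 CPM overlapped, and KO 1 was far above the others (0.74 ± 0.28, edgeR adjusted p = 0.188, or 0.27 without KO 1 and 0.33 without both *Xist* libraries). Macrophages had the lowest fold change (-0.44 ± 0.27, edgeR adjusted p = 0.609), with 115, 132 and 86.0 CPM in WT and, in KO, 96.6, 59.9 and 70.6 CPM.

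*Sgk1* (chr10:21882184-21999903, plus strand) encodes a kinase that is induced by both receptors and raises sodium transport through the epithelial sodium channel. It was by far highest in endothelial cells, with 810, 1089 and 1089 CPM in WT and, in KO, 1519, 1287 and 911 CPM. Stromal cells followed with 254 ± 59.5 CPM and principal cells with 222 ± 66.0, which did not differ beyond their spread. The podocytes and thick ascending limb were lowest, at 22.3 ± 10.7 and 20.5 ± 8.20 CPM. It was the 1 member that entered the test in all 13 classes, and it was called in none (lowest edgeR adjusted p = 0.262, in podocytes, with 4 classes at an unadjusted p below 0.05). Its log2 fold changes ran from -0.81 in T and NK cells to 1.36 in proximal tubule cells, where KO 1 had 585 CPM from 10 cells.

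In principal cells, *Sgk1* was 346, 221 and 181 CPM in WT against 232, 164 and 187 CPM in the KO libraries (log2 fold change -0.31 ± 0.19 and, from edgeR, adjusted p = 0.544). The groups overlapped, and the same was true of the connecting tubule with 145, 96.6 and 97.2 against 156, 89.8 and 87.9 CPM.

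*Klf9* (chr19:23141226-23168134, plus strand) encodes a zinc finger transcription factor that responds to corticosteroids and thyroid hormone. It was the most evenly spread member over the kidney classes, from 392 ± 133 CPM in stromal and 391 ± 88.7 in endothelial cells through 292 ± 48.9 in the thick ascending limb and 253 ± 83.5 in podocytes to 104 ± 34.5 in the connecting tubule. Immune classes were lower, at 34.5 to 64.6 CPM. It was called in none of 12 classes (lowest edgeR adjusted p = 0.227, in macrophages, with 3 classes at an unadjusted p below 0.05). Macrophages had 29.3, 22.3 and 53.3 CPM in WT and, in KO, 96.6, 58.0 and 58.9 CPM, with the KO libraries above (log2 fold change 1.23 ± 0.36). Principal cells had 138, 165 and 205 CPM against 116, 132 and 138 CPM, where KO 3 only touched the lowest WT library and the unrounded values were apart (-0.37 ± 0.17, edgeR adjusted p = 0.378). KO 1 was the highest KO library in 9 of 12 classes for *Klf9*, as it was for *Fkbp5* in 10 of 12. With the 4 libraries without *Xist* alone, the *Klf9* log2 fold change was 0.74 in macrophages and -0.31 in principal cells.

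**Figure D3:**
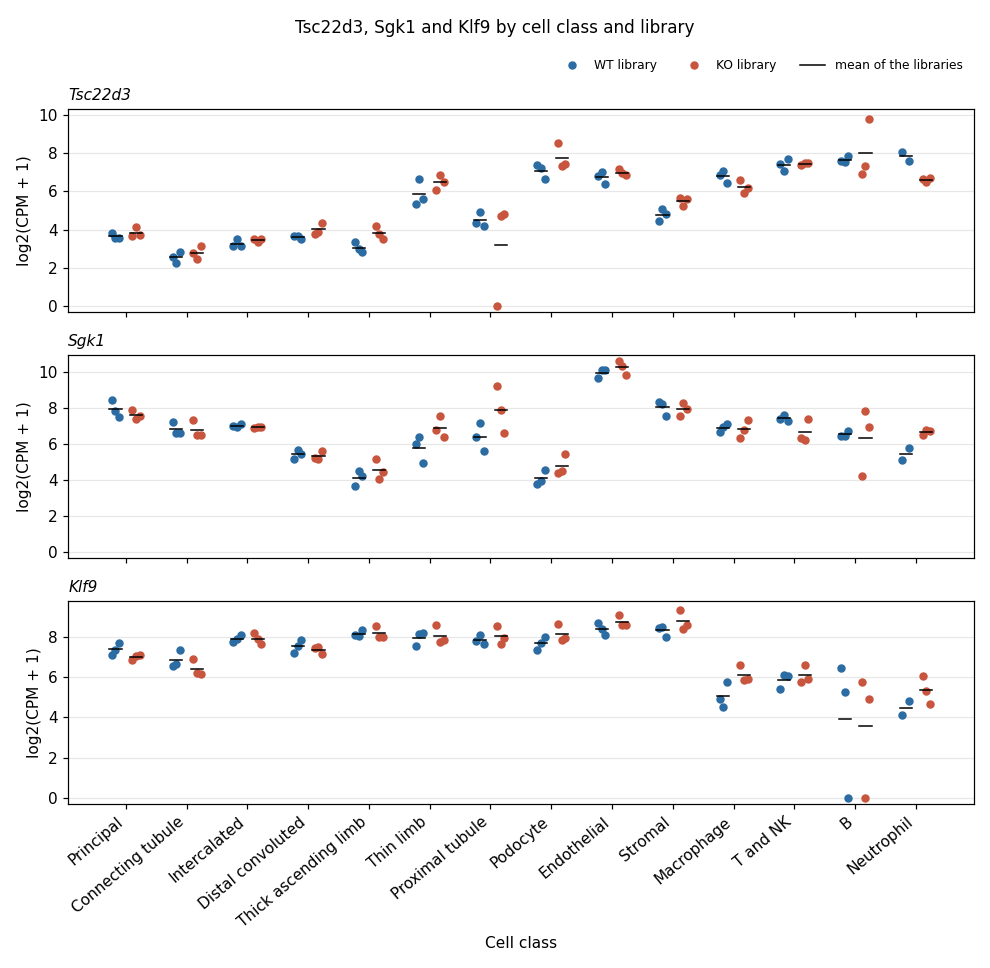
*Tsc22d3*, *Sgk1* and *Klf9* as log2(CPM + 1) by cell class, with 1 point per library (blue WT, red KO) and a black line at the mean of the plotted values. WT and KO points overlap in most classes, and *Sgk1* peaks in endothelial cells of both genotypes.

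**Figure D4:**
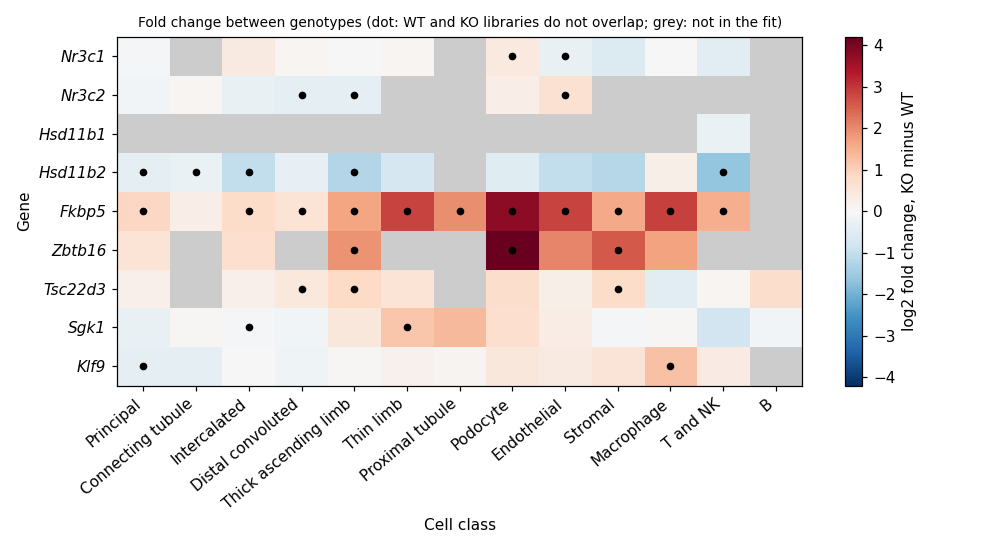
Log2 fold change of KO against WT for each gene (rows) in each tested class (columns), from blue (lower in KO) to red (higher in KO). Black dots mark classes where the 3 WT and 3 KO libraries do not overlap, and grey cells did not pass the low-count filter. The *Fkbp5* and *Zbtb16* rows are red throughout where fitted, the *Hsd11b2* row is blue and the *Tsc22d3* row red in 10 of 11 classes each, *Hsd11b1* has 1 fitted class, and the rows of *Nr3c1*, *Nr3c2*, *Sgk1* and *Klf9* are mixed.

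By likeness of level over the 14 classes, the genes nearest to *Hsd11b2* among 12637 compared were *Kcne1* (Pearson r = 0.988 of log2(mean CPM + 1)), *Rhbg* (0.973) and *Aqp2* (0.967), and those nearest to *Nr3c2* were *Hddc3* (0.913), *Nipsnap2* (0.906) and *Lurap1* (0.904). *Nr3c1* was closest to *Akap13* (0.901), *Gab3* (0.900) and *Chsy1* (0.888), and *Hsd11b1* to *Cks2* (0.890), *Vps18* (0.886) and *Tbc1d10c* (0.881). *Tsc22d3* was closest to *Pqlc3* (0.952), *Kmt2e* (0.947) and *Rc3h1* (0.944), *Klf9* to *Hoxa5* (0.964), *Dmwd* (0.949) and *Actr1b* (0.934), *Sgk1* to *Rasgrf2* (0.817), *Eid2* (0.813) and *Nmb* (0.778), and *Zbtb16* to *Senp5* (0.889), *Tubgcp2* (0.887) and *Gins4* (0.854). *Fkbp5* had no near counterpart, with 0.724 for *Frmd4a*, 0.673 for *Slc39a8* and 0.671 for *Col5a2*. The classes share libraries and were clustered with these genes, so the values describe likeness only.

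Other glucocorticoid-induced genes moved in both directions. Of 29 on the list, 26 entered at least 1 test, and over 243 gene-by-class tests 10 were called higher and 9 lower, with a median log2 fold change of 0.07 against 0.00 over all genes, where 0.727% of all tests were called higher and 0.694% lower. The calls were thus more frequent than over all genes and were split between the directions. All 6 lists were chosen with earlier results of these data known, so how often their genes were called is a description only. *Sult1a1*, a sulfotransferase gene, rose in podocytes (6.05 ± 1.47 to 32.5 ± 17.8 CPM, log2 fold change 2.42, edgeR adjusted p = 0.00782), and in the thick ascending limb (1.11, 0.00344). *Glul*, the glutamine synthetase gene, rose in the thick ascending limb (1.2, edgeR adjusted p = 0.0145), the distal convoluted tubule (1.17, 0.0142) and podocytes (0.79, 0.00382). *Ddit4*, an inhibitor of mTOR signaling, rose in macrophages (61.0 ± 17.3 to 157 ± 41.0 CPM, edgeR adjusted p = 0.0381), a call lost whichever 1 library was left out.

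In the opposite direction, *Mt2* (593 ± 158 to 283 ± 81.0 CPM) and *Mt1* (696 ± 117 to 336 ± 80.4 CPM), which encode metallothioneins, and *Arrdc3* (207 ± 19.2 to 100 ± 31.3 CPM) fell in podocytes, with log2 fold changes of -1.08, -1.07 and -1.08 and edgeR adjusted p of 0.0466, 0.0211 and 0.0256. The *Mt2* call was lost whichever 1 library was left out. *Arrdc3* also fell in the connecting tubule (-1.39, edgeR adjusted p = 0.00409) and the thick ascending limb (-0.82, 0.0238). *Pdk4* and *Cebpd* fell in the connecting tubule (-1.18 and -0.82, edgeR adjusted p = 0.00950 and 0.00744), and *Fam107a* fell in the thick ascending limb (-0.74, 0.00671).

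Of 119 tests of 13 aldosterone-responsive transport genes, 1 was called higher and 3 lower, beside 0.727% and 0.694% over all genes, with a median log2 fold change of -0.05. In principal cells *Fxyd4*, which encodes a regulator of the sodium pump, fell from 898 ± 37.6 to 470 ± 77.2 CPM (-0.89, edgeR adjusted p = 0.00648) and *Nedd4l*, a ubiquitin ligase gene, from 273 ± 25.9 to 186 ± 22.8 CPM (-0.52, 0.0379). The *Nedd4l* call was lost whichever 1 library was left out. *Scnn1a*, a subunit of the epithelial sodium channel, rose in the thick ascending limb (422 ± 12.3 to 615 ± 20.8 CPM, 0.55, edgeR adjusted p = 0.00146). *Scnn1b* was called lower there at 3.37 ± 0.381 against 0.931 ± 0.371 CPM (-1.80, edgeR adjusted p = 0.0167), and it is one of the principal cell markers whose sum moved in that class.

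Receptor chaperones, coregulators and steroid supply genes had 2 calls higher and 1 lower in 263 tests of 24 genes, with a median of 0.01. These shares were close to the 0.727% and 0.694% over all genes and are not read as a result about the list. The chaperone genes *Dnaja1* (0.54, edgeR adjusted p = 0.00944) and *Hspa8* (0.47, 0.0125) rose in the thick ascending limb. Inflammatory genes that glucocorticoids repress had 2 calls, both higher, in 81 tests of 13 genes, with a median of -0.01. Both were in podocytes, *Icam1* (2.42 ± 0.770 to 8.45 ± 2.52 CPM, edgeR adjusted p = 0.0412) and *Cxcl10* (8.53 ± 1.76 to 27.7 ± 15 CPM, 0.0466). Genes induced by tissue dissociation had 6 calls higher and 1 lower in 202 tests of 16 genes, with a median of 0.08. Of the higher calls, 4 were in the thick ascending limb, where the list median was 0.37, and 1 each in intercalated and principal cells. Over all genes, the thick ascending limb had 2.16% called higher and 2.27% called lower. The lower one was *Nr4a1* in the thick ascending limb (250 ± 11.8 to 110 ± 6.22 CPM, -1.18, edgeR adjusted p = 3.33e-05). With a mitochondrial limit of 30% the value for *Nr4a1* was -0.12 (edgeR adjusted p = 0.952).

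Circadian clock genes, several of which are themselves under glucocorticoid control, had the most calls of the 6 lists. This list too was chosen with earlier results known, so its count of calls is a description. All 17 entered a test, and over 150 tests 20 were called higher and 4 lower, beside 0.727% and 0.694% over all genes, with a median log2 fold change of 0.27. In the thick ascending limb, where 2.16% of all genes were called higher, 10 of 16 rose, led by *Hlf* (7.43 ± 2.63 to 26.2 ± 5.76 CPM, 1.84, edgeR adjusted p = 0.000808), *Dbp* (22.3 ± 12.4 to 71.7 ± 2.97 CPM, 1.73, 0.00589) and *Per2* (7.42 ± 2.01 to 22.5 ± 3.47 CPM, 1.61, 0.000657), while *Arntl*, which encodes the clock activator BMAL1, fell (7.73 ± 6.12 to 0.796 ± 0.402 CPM, -3.37, 0.00749). WT 3 had the most *Arntl* of the WT libraries (14.8 CPM against 4.02 and 4.38), the value was -2.43 without it, and the call was lost without KO 3 (edgeR adjusted p = 0.0657). In podocytes *Dbp*, *Per3* and *Hlf* rose (1.58, 1.33 and 1.27, edgeR adjusted p = 0.0159, 0.0209 and 0.0434), and *Npas2*, *Arntl* and *Per1* fell (-3.54, -2.01 and -0.68, edgeR adjusted p = 0.00532, 0.00808 and 0.0130). *Per1* also stands on the list of induced genes, where its direction in podocytes was opposite to that of *Fkbp5*. The clock list median ran over the classes from -0.25 in T and NK cells to 0.84 in the thick ascending limb. The list holds genes that moved in opposite directions, so its median does not measure a shift of the clock. How the list and *Fkbp5* are related over the classes was not tested. The labels give no hour of collection, and its part was not tested.

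The calls of the 6 lists depended on which cells and libraries were used. With a mitochondrial limit of 30%, which left 1011 of 3409 thick ascending limb cells, 6 genes were called higher and 5 lower there over all genes, and 0 of the 26 list calls of that class were kept. Of the 58 list calls in all, each gene counted once, 27 were kept with the 4 libraries without *Xist* and between 32 (without KO 3) and 38 (without WT 3) when 1 library was left out. Calls named above and lost without the *Xist* libraries were *Mt1*, *Mt2*, *Arrdc3*, *Icam1*, *Cxcl10*, *Npas2*, *Per3* and *Hlf* in podocytes. In the thick ascending limb *Arrdc3*, *Scnn1b*, *Dnaja1* and *Hspa8* were lost, and in the connecting tubule *Pdk4* and *Cebpd*. *Ddit4* in macrophages and *Fxyd4* and *Nedd4l* in principal cells were lost too. *Sult1a1* in podocytes and the thick ascending limb, *Glul* and *Arntl* in podocytes, and *Bhlhe41*, *Ciart* and *Per3* in the thick ascending limb were called under each alternative that gave a value.

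**Figure D5:**
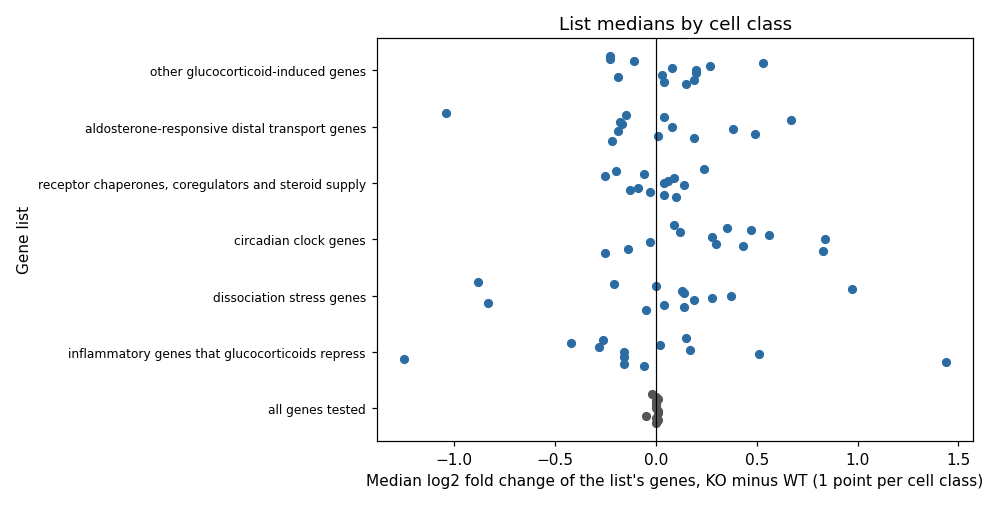
Median log2 fold change of KO against WT (horizontal axis) for each gene list (vertical axis), with 1 point per tested cell class and grey points for all genes. The medians of all genes stay between -0.05 and 0.01, and those of the lists, each over few genes, spread more. They run from -0.25 to 0.84 for the clock list and from -0.23 to 0.53 for the other glucocorticoid-induced genes. The range is -1.25 to 1.44 for inflammatory, -0.88 to 0.97 for dissociation, -1.04 to 0.67 for aldosterone-responsive and -0.25 to 0.24 for chaperone and coregulator genes.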

How the data were processed

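UMI counts per gene and cell barcode were deposited by the authors, who made them with the BD Rhapsody whole transcriptome pipeline on mm10 and, per the submitters' notes, analysed them with Scanpy 1.8. Cells with 500 to 60000 UMIs, 200 to 8000 genes and at most 50% mitochondrial UMIs were clustered (scanpy 1.11.5) and named from 124 markers. Scrublet's own threshold marked fewer than 0.5% of cells in each library, so the 6% with the highest doublet scores were removed. Counts were summed per class and library and tested with edgeR 4.0.16 (TMM, quasi-likelihood, at least 10 counts by filterByExpr, Benjamini-Hochberg over all genes of a class), which was tested on simulated data. DESeq2 1.42.0 was an alternative. Nothing says more than that each library is 1 mouse. The shares allowed for classes with no UMI of *Hsd11b1* cover counting error only. Values after ± are SDs over libraries or, for log2 fold changes, SEs from the edgeR fits.

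The 9 members and the 6 gene lists were chosen with earlier results of these data known. Text names all members, up to 3 called genes per list, class and direction, and the 3 genes most like each member. Gene coordinates came from GENCODE vM21 and promoters from RefSeq, both on GRCm38. One called gene of the lists is counted but is not reported here.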

Additional observations from a re-analysis of the deposited data

Results flagged for a closer look

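*Nr3c1* was called in the interaction test of whether the genotype difference varied between classes (edgeR adjusted p = 0.0260). That call was lost when WT 1, WT 2, KO 1 or KO 3 was left out. The *Nr3c1* libraries were separated in opposite directions in podocytes (KO above) and endothelial cells (KO below), whose log2 fold changes differed by 0.72. Neither class passed the test by itself (edgeR adjusted p = 0.0936 and 0.621). Opposite separations of this kind were also seen for *Nr3c2* between endothelial cells (KO above) and the distal convoluted tubule or the thick ascending limb (KO below), with differences of 1.01 and 1.04 in log2 fold change. For *Sgk1* they were seen between thin limb (KO above, log2 fold change 1.16) and intercalated cells (KO below, -0.08), with a difference of 1.24. Neither *Sgk1* value passed the test (edgeR adjusted p = 0.535 and 0.845). For *Klf9* they were seen between macrophages (KO above) and principal cells (KO below), with a difference of 1.60. Over all genes and classes, libraries were fully separated with KO above in 7.42% of tests and with KO below in 8.87%. The difference between each of these pairs of classes was not tested. In the interaction test over all classes, *Nr3c2*, *Sgk1* and *Klf9* were not called (edgeR adjusted p = 0.370, 0.109 and 0.134).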

How the results depend on the processing

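Over all genes and classes, 674 tests were called higher and 643 lower. These counts became 2181 and 2515 with no low-count filter, 328 and 254 with a mitochondrial limit of 30%, and 320 and 207 with the 4 libraries without *Xist*. Leaving out 1 library gave 383 to 530 calls higher and 275 to 508 lower, fewest without KO 1, and counts more than 1.5 times smaller also came without WT 1 (404 higher), WT 2 (391 lower) and KO 2 (427 lower). The 2 calls among the 7 tested members became 12 with no low-count filter, 0 with the 30% limit, 1 with no mitochondrial limit, 1 with equal cells, 1 without the *Xist* libraries, 4 with the replicate block and 0 to 4 when 1 library was left out. Calls of the gene lists, 41 higher and 17 lower counting each gene once, became 130 and 69 with no filter, 13 higher with the 30% limit and 8 lower without the *Xist* libraries, and ranged from 22 to 34 higher (22 without WT 1, 27 without KO 1, 26 without KO 3) and from 10 (without KO 1) to 19 lower when 1 library was left out. Genes called in the interaction test ranged from 212 (without KO 1) to 572 when 1 library was left out, against 595 (376 without WT 1, 356 without KO 2). The cause was not tested.

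Of 1581 single values under alternatives, 4 reversed: *Hsd11b2* in the connecting tubule was 0.81 (edgeR adjusted p = 0.00282) with no mitochondrial limit and 0.09 with classes from cell scores, *Fkbp5* in the connecting tubule was -0.02 with equal cells, and *Sgk1* in intercalated cells was 0.31 with the 30% limit. Apart from that value, no *Fkbp5* or *Zbtb16* fold change changed sign. The class with the highest level was the same for 6 to 9 of 9 members over the alternatives of cells and classes, and it changed for *Hsd11b2*, *Fkbp5*, *Tsc22d3* and *Klf9* only.

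Deviations of same-numbered libraries from their group means had correlations of 0.221 to 0.380 in B cells and -0.260 to 0.214 in the other 12 classes. With 3 libraries per group, these values cannot exclude a pairing or a shared batch. With the replicate block, *Sgk1* and *Tsc22d3* in podocytes were also called (edgeR adjusted p = 0.0209 and 0.0294). *Hsd11b1*, *Zbtb16* and *Nr3c2* fell below the count filter in 12, 6 and 6 of 13 classes, where no difference could be tested at this depth.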
